A study of Mus musculus with 8 samples.

Results

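The 2 insulin genes of the mouse, Ins1 and Ins2, and the amylin gene Iapp were followed through 8 islet libraries. They were the 3 rows, of 54532 genes in each count file, whose identifiers belong to these symbols, and all 3 were among the 17055 genes that passed the filter on low counts. Islets came from mice of 25 to 30 weeks, either wild type or labelled Sting-/-, and were exposed for 3 h either to DMXAA (50 µg/mL) or to its solvent, DMSO. DMXAA is an agonist of the mouse form of STING, the adaptor that links DNA in the cytosol to an interferon response. Each of the 4 combinations of genotype and treatment had 2 libraries. All islets were isolated with collagenase, picked by hand and kept overnight in culture before exposure, and the labels give neither the knockout allele nor whether libraries came from separate or pooled mice. What a p-value below measures is therefore the scatter of these libraries, part or all of which may be technical.

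Insulin lowers blood glucose and is made by the beta cells of the islet. Most mammals have a single insulin gene, whereas mice and rats carry the ancestral gene, Ins2, and a copy that arose from a reverse-transcribed RNA, Ins1, and beta cells translate both. Amylin, a peptide of the calcitonin family, is packed into the same granules, is released together with insulin, and slows gastric emptying and food intake. Both hormones are made as precursors that enter the endoplasmic reticulum, are cut by the convertases PCSK1 and PCSK2 and are trimmed by carboxypeptidase E, and amylin is also amidated by PAM. Transcription of these genes in beta cells depends on PDX1, MAFA and NEUROD1, among others.

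Libraries held between 15624020 and 19601850 counts. Interferon genes served as a check of the treatment: 12 of the 12 listed rose with DMXAA in wild-type islets (edgeR adjusted p under 0.05). In knockout-labelled islets 0 of 12 were called, and DESeq2 also called 0. There 3 had an unadjusted p under 0.05 in edgeR, against 7.3% of all genes. The targeted gene, Sting1 (named Tmem173 in the annotation used), was no guide to genotype. Wild-type libraries held 39 and 41 counts of it with DMSO, then 23 and 39 with DMXAA. Libraries labelled knockout held 48 and 19 with DMSO, then 35 and 27 with DMXAA. A knockout label thus did not go with a lower count, and every direction by genotype below rests on the label. Islet identity was plain in the counts, since the 3 genes ranked 1 to 3 in every library and glucagon mRNA (Gcg), from alpha cells, ranked 4.

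Ins1 (ENSMUSG00000035804) lies on chromosome 19 at chr19:52264297-52265476 of mm10, plus strand, and has 2 exons. Ins2 (ENSMUSG00000000215) lies on chromosome 7, minus strand; its main transcript has 3 exons between 142678659 and 142679726, although the annotated gene extends to 142743381. Because these genes are close relatives, the part of the coding sequence in which they are most alike is shown, with every base that differs in capitals. It runs from coding base 61 to 210 in both.
Ins1: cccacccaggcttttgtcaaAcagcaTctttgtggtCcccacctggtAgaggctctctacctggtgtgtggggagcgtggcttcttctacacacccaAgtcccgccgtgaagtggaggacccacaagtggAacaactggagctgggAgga
Ins2: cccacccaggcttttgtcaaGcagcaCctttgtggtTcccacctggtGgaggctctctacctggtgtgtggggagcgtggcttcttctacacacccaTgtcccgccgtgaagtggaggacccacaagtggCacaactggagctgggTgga
These 150 bases, the length of 1 read, differ at 7 positions. Over the whole alignment of 333 columns, 302 were identical (90.7%), 25 were mismatches and 6 were gap columns. The longest stretch that the annotated transcripts share without a difference is 56 bases, and 0 of the 184 windows of read length were free of differences. A full-length read that lies within the coding sequence therefore crosses at least 7 bases that tell the genes apart. The rule by which the authors' counting handled reads that match both genes is not stated, and for that reason the split between Ins1 and Ins2 is less certain than their sum.

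**Figure D1:**
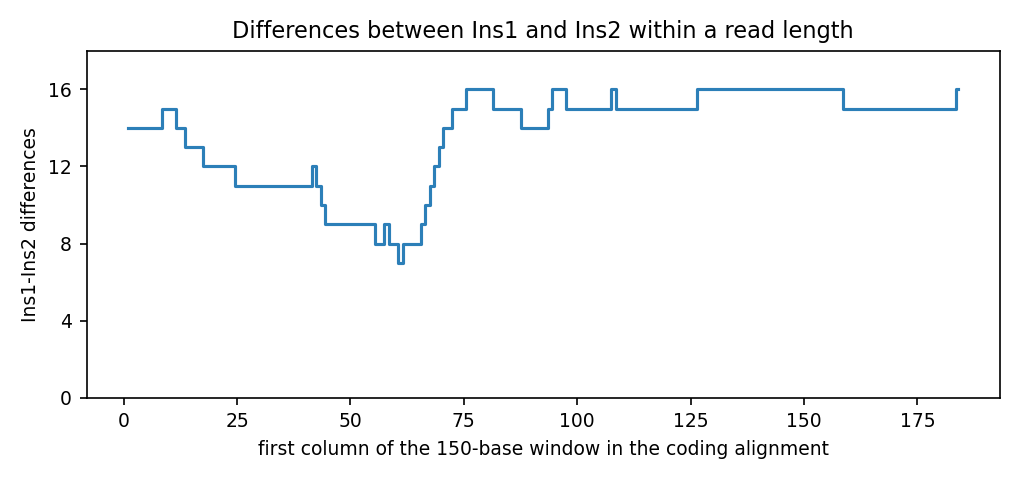
Number of differing alignment columns (vertical axis) in each of the 184 windows of 150 columns along the coding alignment of Ins1 and Ins2, by the window's first column (horizontal axis). The count falls to 7 near column 61 and reaches 16 elsewhere.

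Iapp (ENSMUSG00000041681) lies on chromosome 6 at chr6:142298423-142303961, plus strand, with 3 exons. It lies within the span of Slco1a5, a transporter gene on the opposite strand that had between 32 and 79 counts in any library, against at least 425177 for Iapp. The strand setting of the counting is not stated, and without one, reads of the pair cannot be told apart.

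The 250 bases before the start that RefSeq annotates for Ins1 and for Iapp are shown because the genes are active in the same cells (RefSeq, GRCm38.p6, both on the plus strand, at chr19:52264047-52264296 and chr6:142298175-142298424). Capitals mark TAAT or its reverse ATTA, the core bound by homeodomain factors such as PDX1, and the E box CANNTG, bound by basic helix-loop-helix factors such as NEUROD1. Overlapping marks were allowed. RefSeq places the Iapp start 2 bases after the GENCODE start given above, so the last 2 bases of that window lie within the GENCODE gene.
Ins1: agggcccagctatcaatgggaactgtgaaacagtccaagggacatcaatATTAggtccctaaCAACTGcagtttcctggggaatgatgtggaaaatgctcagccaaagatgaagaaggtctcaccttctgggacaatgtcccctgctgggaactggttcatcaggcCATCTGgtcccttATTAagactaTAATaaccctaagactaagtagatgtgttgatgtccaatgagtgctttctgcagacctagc
Iapp: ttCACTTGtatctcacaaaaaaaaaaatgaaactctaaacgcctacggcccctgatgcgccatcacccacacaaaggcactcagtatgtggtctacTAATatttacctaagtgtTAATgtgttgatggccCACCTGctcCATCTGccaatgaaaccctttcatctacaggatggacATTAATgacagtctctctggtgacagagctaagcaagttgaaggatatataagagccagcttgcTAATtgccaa
TAAT or ATTA matched 3 times in the Ins1 window and 5 times in the Iapp window, and CANNTG matched 2 and 3 times. Both are common letters: of 32544 windows of this length, 54.8% hold the first and 66.2% the second. The search on both strands also covered TGACG (17.9% of windows), TGCTGAC (3.79%), TATAAA (12.3%), GGAAAT (15.4%) and the core of an interferon-stimulated response element, GAAA repeated after any 2 bases (2.98%), with 0 matches in either window. For Ins1 the annotated start may not be the base where most transcripts begin in beta cells, since a TATAAA stands at base 123 of the annotated transcript, ahead of a start codon that follows 209 untranslated bases. Whether transcription starts there was not tested. A match is a description of letters and says nothing of binding in these islets.

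Ins2 was the most abundant mRNA in all 8 libraries. It took 11.5% of counts in the lowest library, a median of 15.0% and 18.6% in the highest. Ins1 ranked next, from 3.36% over a median of 4.52% to 6.32%, and Iapp took 2.24% to 2.93% with a median of 2.66%. The 3 genes together held between 17.4% and 27.7% of each library, with a median of 22.1%. Exact binomial 95% intervals for these shares reached at most 0.0212 percentage points to either side, for counting error only, so the differences between libraries exceed counting error.

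**Figure D2:**
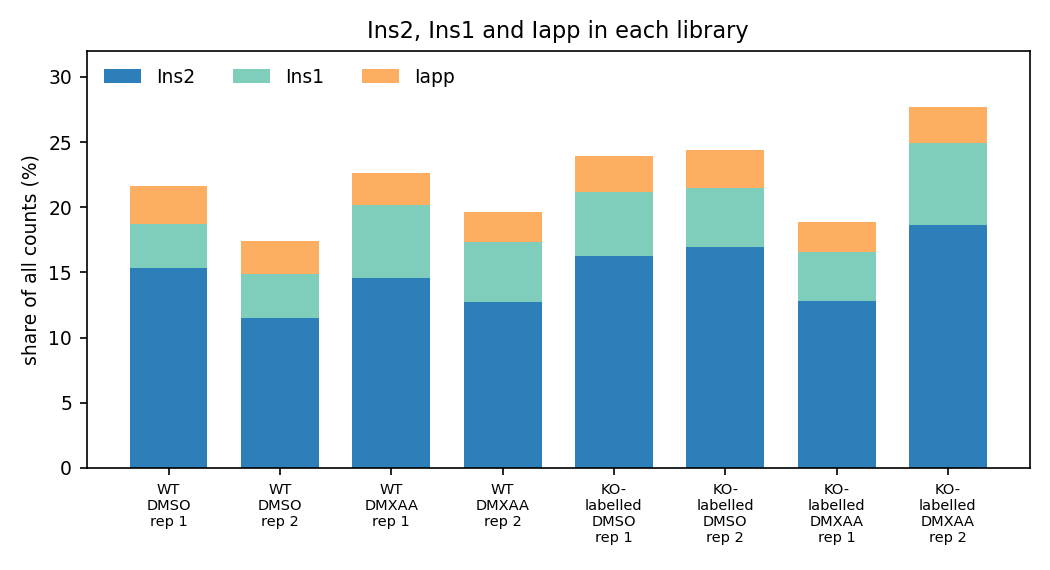
Share of all counts in percent (vertical axis) taken by Ins2, Ins1 and Iapp, stacked, in each of the 8 libraries. The sum runs from 17.4% in a wild-type DMSO library to 27.7% in a knockout-labelled DMXAA library.

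All annotated exons of a gene, merged, came to 1312 bases for Ins2, 1062 for Ins1 and 974 for Iapp. The main Ins2 transcript is only 478 bases long, against 1062 for Ins1. Dividing by 1312 therefore understates Ins2 if its reads come mainly from that transcript. Compared per kilobase of annotated exon, Ins2 stood above Ins1 in 8 of 8 libraries, by 2.12 to 3.69-fold. Ins1 stood above Iapp in 8 of 8, by 1.06 to 2.10-fold. In wild-type DMSO islets the levels were 97488 ± 25558, 30180 ± 1568 and 26750 ± 4043 CPM per kilobase (mean ± SD, n = 2 libraries; CPM is counts scaled to a common library size). Per kilobase of coding sequence alone, Ins2 again stood above Ins1 in 8 of 8 libraries, by 2.57 to 4.48-fold, whereas Ins1 stood above Iapp in 7 of 8, with ratios from 0.994 to 1.98. In wild-type DMSO islets the mean of Ins1 was above that of Iapp on either length (98017 against 92388 CPM per coding kilobase), within their spread. In replicate 1 of that group the order depended on which length was used. Ins2 was apart from both on either scale.

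In wild-type islets Ins1 measured 33229 and 30874 CPM when untreated, and 56102 and 43413 CPM after DMXAA. In knockout-labelled islets it measured 51033 and 46768 CPM when untreated, and 35562 and 72474 CPM after DMXAA. The wild-type DMSO pair held the lowest levels and the DMXAA pair lay above it without overlap, while the knockout-labelled DMXAA pair held both a low library and the highest of all 8. Across libraries the highest level was 2.35-fold the lowest.

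For Ins2, the wild-type libraries measured 151615 and 104192 CPM when untreated, and 146922 and 120705 CPM after DMXAA. The knockout-labelled libraries measured 169331 and 177800 CPM when untreated, and 120459 and 213638 CPM after DMXAA. The treated and untreated pairs overlapped in both genotypes, and the extremes differed by 2.05-fold.

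Iapp stood at 28838 and 23270 CPM in untreated wild-type islets, and at 24809 and 22125 CPM after DMXAA. Untreated knockout-labelled islets had 29097 and 30698 CPM, and treated ones 21044 and 31644 CPM. Treated and untreated pairs again overlapped in CPM, and the range was the narrowest of the 3 genes, at 1.5-fold. As a share of counts, the treated Iapp pair lay below the untreated pair in both genotypes. Wild-type libraries held 2.92% and 2.56% when untreated, then 2.46% and 2.34%. Knockout-labelled libraries held 2.79% and 2.93% when untreated, then 2.24% and 2.76%. Knockout-labelled DMXAA replicate 2 held the highest CPM of each gene and replicate 1 the lowest of Iapp. In bulk islet RNA, fewer beta cells and less hormone mRNA per beta cell cannot be told apart.

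**Figure D3:**
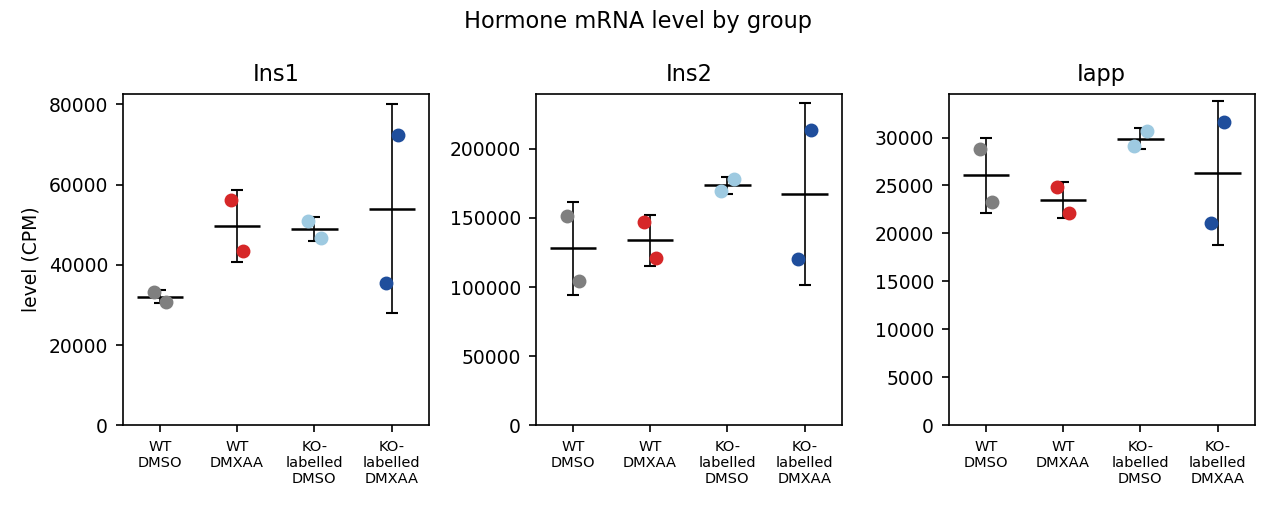
Level of Ins1, Ins2 and Iapp in CPM (vertical axes, from 0) in the 4 groups. Points are libraries, the bar is the group mean and the whiskers the SD of 2 libraries, and the knockout-labelled DMXAA pair is the widest for each gene.

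The first comparison asked whether STING activation altered hormone mRNA where STING should be present. In wild-type islets 0 of the 3 genes were called by edgeR's quasi-likelihood test, against 1.48% of all genes tested. Ins1 was 1.55-fold higher with DMXAA, with a 95% interval from 0.992 to 2.43-fold (log2 fold change 0.63, SE 0.30, edgeR adjusted p = 0.43). Of the 3, Ins1 alone had both treated libraries above both untreated ones in CPM, a pattern that 22.5% of all genes tested also had. In CPM 0 of 3 lay below without overlap, as 23.9% of all genes did, although Iapp did so as a share of counts. Ins2 had a log2 fold change of 0.07 (95% interval -0.60 to 0.73, edgeR adjusted p = 0.954), and Iapp of -0.15 (-0.66 to 0.36, edgeR adjusted p = 0.825). A change of Ins2 beyond 1.66-fold up, or below 0.661 of its untreated level, lies outside its interval. The sign for Ins2 turned without wild-type DMSO replicate 2 (-0.18) or wild-type DMXAA replicate 1 (-0.08), and that for Iapp without wild-type DMSO replicate 1 (0.026). None of the 3 had an unadjusted p under 0.05 in this edgeR fit or was called by DESeq2 after adjustment, in this comparison or in the other 5. The unadjusted DESeq2 p for Ins1 was 0.00739 here (adjusted 0.201) and 0.0128 between genotypes under DMSO (adjusted 0.267). For the effect averaged over genotypes it was 0.0209 (adjusted 0.426). With RLE scaling, edgeR gave Ins1 an unadjusted p of 0.0458 here (adjusted 0.415).

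In knockout-labelled islets 0 of 3 were called, against 0.375% of all genes. The log2 fold changes with DMXAA were 0.14 for Ins1 (95% interval -0.50 to 0.79), -0.06 for Ins2 (-0.72 to 0.61) and -0.18 for Iapp (-0.70 to 0.33), with edgeR adjusted p of 0.982, 0.994 and 0.967. In CPM the treated pair straddled the untreated pair for Ins1, Ins2 and Iapp alike, so 0 of 3 were apart. Of all genes, 18.1% were apart and higher and 17.7% apart and lower. As a share of counts, the treated Iapp pair lay below the untreated pair. Without knockout-labelled DMXAA replicate 2 the log2 fold changes were -0.44, -0.51 and -0.49, and without replicate 1 they were 0.57, 0.30 and 0.087.

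The difference between the 2 treatment effects, knockout-labelled minus wild type, was -0.49 for Ins1 (95% interval -1.40 to 0.42, edgeR adjusted p = 0.79). For Ins2 it was -0.12 (-1.06 to 0.82, edgeR adjusted p = 0.966) and for Iapp -0.03 (-0.76 to 0.69, edgeR adjusted p = 0.987). The test called 0 of 3, against 1.2% of all genes, so a genotype-dependent effect on hormone mRNA was not detectable with these libraries. The value for Ins1 was -1.08 without knockout-labelled DMXAA replicate 2 (edgeR adjusted p = 0.0985) and -0.064 without replicate 1. Averaged over genotypes, the effect of DMXAA was 0.39 for Ins1 (edgeR adjusted p = 0.557), 0.00 for Ins2 (0.997) and -0.17 for Iapp (0.752), with 0 of 3 called against 0.745% of all genes. The averaged value for Ins1 was 0.60 without knockout-labelled DMXAA replicate 1 (edgeR adjusted p = 0.0779) and 0.10 without replicate 2.

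Genotype labels were then compared within each treatment. Under DMSO both knockout-labelled libraries lay above both wild-type libraries in CPM for 3 of 3 genes, as did 24.3% of all genes tested. In CPM 0 of 3 lay below, as 22.4% did. For Iapp the separation depended on the scaling. As shares of counts its wild-type libraries (2.92% and 2.56%) and knockout-labelled libraries (2.79% and 2.93%) overlapped. The differences were 1.53-fold for Ins1 (log2 0.61, 95% interval -0.04 to 1.26), 1.36-fold for Ins2 (0.44, -0.22 to 1.11) and 1.15-fold for Iapp (0.20, -0.31 to 0.71). With edgeR adjusted p of 0.429, 0.576 and 0.755, 0 of 3 were called, against 0.223% of all genes. Without wild-type DMSO replicate 1 the log2 difference was 0.72 for Ins2 and 0.35 for Iapp, and without replicate 2 it was 0.19 and 0.051, none of them called. Markers of the other islet endocrine cells also summed higher in both knockout-labelled DMSO libraries. Alpha cell markers summed to 21313 and 23463 CPM there against 17829 and 16933 CPM in the wild type, and delta and PP cell markers to 3843 and 4484 against 2216 and 2991 CPM. Among these markers edgeR called 0 of 13 and 0 of 9. At an unadjusted p under 0.05 there were 3 of 13 and 4 of 9, against 12.3% of all genes. DESeq2 called 1 of each, Ttr and the somatostatin gene Sst. For Sst, edgeR gave a log2 value of 1.13 in favour of the knockout-labelled libraries (SE 0.21, adjusted p = 0.0531), and its adjusted p ran from 0.00887 to 0.624 over the 8 edgeR fits that left out a library. Their part in the result was not tested. Members of such a small set share their libraries and are not independent of each other.

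Under DMXAA the knockout-labelled and wild-type libraries overlapped for Ins1, Ins2 and Iapp, whereas 23.3% of all genes were apart and higher and 21.0% apart and lower. Log2 differences were 0.12 for Ins1 (95% interval -0.53 to 0.76), 0.32 for Ins2 (-0.34 to 0.98) and 0.17 for Iapp (-0.35 to 0.68), with edgeR adjusted p of 0.905, 0.707 and 0.819. Again 0 of 3 were called, against 2.39% of all genes. The comparisons by treatment and by genotype share groups, so their values are given side by side and not as separate support for each other.

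**Figure D4:**
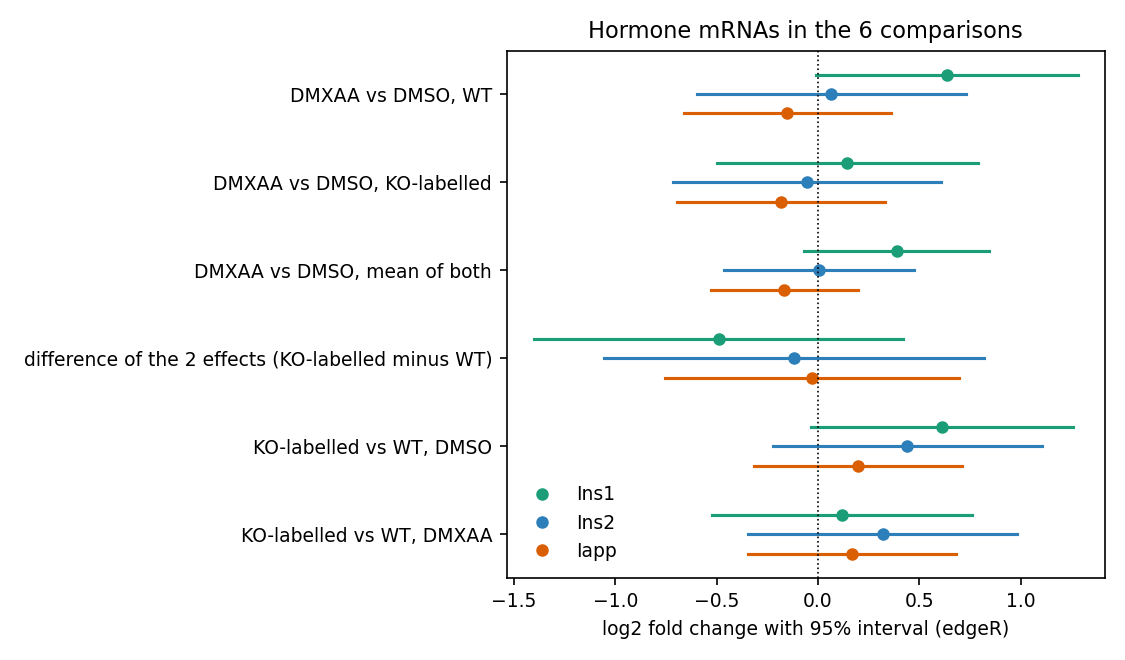
Log2 fold change with its 95% interval from edgeR (horizontal axis) for Ins1, Ins2 and Iapp in the 6 comparisons (vertical axis). Each of the 18 intervals includes 0, and that of Ins1 in wild-type islets comes closest to leaving it, from -0.01 to 1.28.

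Ratios within a library do not depend on its scaling. Ins1 counts per Ins2 count were 0.219 and 0.296 in wild-type DMSO libraries and 0.382 and 0.360 with DMXAA. In knockout-labelled libraries they were 0.301 and 0.263 with DMSO and 0.295 and 0.339 with DMXAA. The wild-type DMXAA pair was the highest of the 4 and did not overlap the wild-type DMSO pair, whereas the knockout-labelled pairs overlapped. Ins1 thus made up between 18% and 27.6% of insulin counts.

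Over both genotypes the Ins1 to Ins2 ratio was 1.28-fold higher with DMXAA, with a two-sided exact permutation p of 0.111 within genotypes (0.333 after Benjamini-Hochberg adjustment over 6 tests). With 36 arrangements the smallest p this design allows is 0.0556, so no ratio here could pass 0.05. Within wild-type islets the ratio was 1.45-fold higher and within knockout-labelled islets 1.12-fold. By genotype label it was 0.971-fold (exact permutation p = 0.833, adjusted 0.889).

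Iapp counts per Ins2 count were 0.190 and 0.223 in wild-type DMSO libraries and 0.169 and 0.183 with DMXAA. In knockout-labelled libraries they were 0.172 and 0.173 with DMSO and 0.175 and 0.148 with DMXAA. The untreated wild-type pair was the highest, above the other 6 libraries. Treated libraries had 0.893-fold the untreated ratio (exact permutation p = 0.167, adjusted 0.333), and knockout-labelled libraries 0.874-fold the wild-type ratio (exact permutation p = 0.111, adjusted 0.333).

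The summed share of the 3 genes was 19.5% ± 2.95 in untreated and 21.1% ± 2.10 in DMXAA-treated wild-type islets (SD, n = 2 libraries). It was 24.2% ± 0.301 and 23.3% ± 6.27 in the knockout-labelled DMSO and DMXAA islets. Treatment shifted it by 0.363 percentage points (exact permutation p = 0.889, adjusted 0.889) and genotype label by 3.38 points (exact permutation p = 0.278, adjusted 0.417), neither beyond the spread. Without knockout-labelled DMXAA replicate 2 the treatment difference was -1.85 points and the genotype difference 1.16 points.

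**Figure D5:**
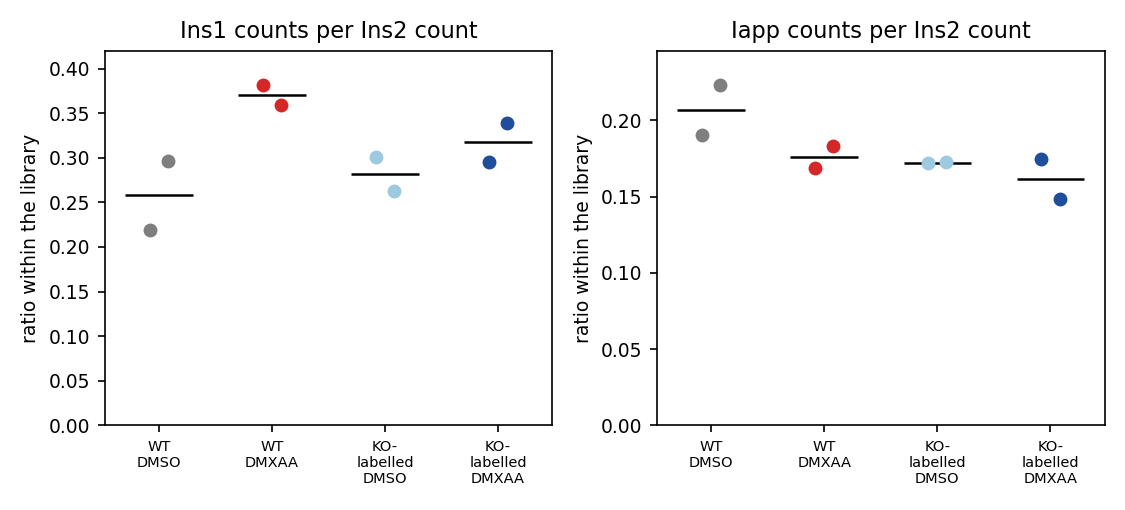
Ins1 counts per Ins2 count (left) and Iapp counts per Ins2 count (right) within each library, from 0, in the 4 groups; bars are group means. On the left the wild-type DMXAA libraries, at 0.382 and 0.360, are the highest, and on the right the wild-type DMSO libraries, at 0.190 and 0.223, are.

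Other cell types were present at levels that differed between libraries. Acinar markers, the digestive enzyme genes of the exocrine pancreas, summed to 7670 and 1617 CPM in untreated and 1814 and 3360 CPM in treated wild-type libraries. In knockout-labelled libraries the sums were 1884 and 2753 CPM when untreated, then 525.9 and 480.3 CPM. Of 32 such genes, 27 were tested. Their part in the result was not tested. Leaving their counts out of the total gave a genotype difference in the summed share of 3.33 points, against 3.38. At no more than 7670 CPM they are too small a part of the total to move that share far, so this decides nothing about them. Mitochondrially encoded mRNAs summed to 11905 and 9137 CPM in wild-type DMSO and 7390 and 6127 with DMXAA, and to 12711 and 15947 and then 10485 and 9732 in knockout-labelled islets. They were lower with DMXAA than with DMSO on group average in both genotypes. Without them the genotype difference in the share was 3.48 points, and they too are a small part of the total, so this decides nothing about their part. Lymphocyte markers summed to 95.9 and 76.0 CPM in knockout-labelled DMSO libraries and to between 9.99 and 37.0 CPM in the other 6, and their part in the result was not tested. Under DMXAA, alpha cell markers summed to 18062 and 19518 CPM in wild-type and 20577 and 26821 in knockout-labelled libraries. Delta and PP cell markers there summed to 3380 and 3375 and to 3672 and 7607 CPM, so the highest sum of both lists fell in knockout-labelled DMXAA replicate 2, the library with the highest hormone levels.

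Endothelial markers summed to 994 and 1244 CPM in untreated and 793 and 818 CPM in treated wild-type libraries, and to 927 and 839.9 and then 1526 and 1399.5 CPM in the knockout-labelled ones. Of 16 tested, edgeR called 3 lower with DMXAA in wild-type islets (Kdr, Eng and Egfl7), against 1.48% of all genes called in either direction. In knockout-labelled islets it called 2 higher (Kdr and Flt1), against 0.375%. For the difference of the effects 7 were called higher, against 1.2%, and between genotypes under DMXAA 9, against 2.39%. Between genotypes under DMSO edgeR called 0, against 0.223%, and DESeq2 called 2. There 6 had an unadjusted p under 0.05 in edgeR, against 12.3% of all genes. Macrophage markers summed to 176 and 127 CPM and then 112 and 116 CPM in wild-type libraries, and to 162 and 158 and then 155 and 265 CPM in knockout-labelled ones. Of 18 tested, edgeR called Itgax lower with DMXAA in wild-type islets and higher for the difference of the effects. It called Cd68, Itgax and Laptm5 higher between genotypes under DMXAA. The shares of all genes called in these comparisons are those given for the endothelial markers. The part of these cells in the hormone values was not tested.

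Other beta cell genes were set beside the hormones. With Iapp left out, 15 markers that include the glucose transporter Slc2a2 and the zinc transporter Slc30a8 summed to 8417 and 8301 CPM in untreated and 8545 and 7377 CPM in treated wild-type libraries. In knockout-labelled libraries the sums were 8476 and 8307 CPM when untreated, then 7962 and 9615 CPM. Knockout-labelled DMXAA replicate 2 was again the highest. With Iapp included, edgeR called 0 of 16 in any of the 6 comparisons, in which it called 0.223% to 2.39% of all genes. At an unadjusted p under 0.05 there were 0 to 3, against 7.3% to 13% of all genes. DESeq2 called 1, the peptide gene Npy, between genotypes under DMSO. Of 12 genes tested from a list of beta cell dedifferentiation and disallowed genes, edgeR called Cd81 alone, higher in knockout-labelled islets under DMXAA. With DMXAA in knockout-labelled islets 6 of the 12 had an unadjusted p under 0.05, against 7.3% of all genes. Their median log2 fold change there was 0.49, and -0.12 in wild-type islets. Which cells carried these mRNAs was not tested.

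The machinery that makes, cuts and stores the hormones was examined through 6 lists of which 99 genes were tested. They cover promoter factors, insulin mRNA binding proteins, entry into the endoplasmic reticulum and folding, precursor cleavage and amidation, granule storage, and glucose sensing. With DMXAA in wild-type islets edgeR called 0 of 99, against 1.48% of all genes. The median log2 fold change was 0.01 against 0.00 for all genes. At an unadjusted p under 0.05 there were 17 of the 99, against 11.9% of all genes, and DESeq2 called 1, the granule protein gene Chgb. In knockout-labelled islets edgeR called 0 of 99, against 0.375% of all genes, with 4 at an unadjusted p under 0.05 against 7.3%. Under DMSO between genotypes it called 0 of 99, against 0.223%, with 12 unadjusted against 12.3%. For the difference of the effects and the average effect it called 0 of 99 each, against 1.2% and 0.745%. There 10 and 12 had an unadjusted p under 0.05, against 8.71% and 9.92%. DESeq2 called 0 in each of these 4 comparisons.

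Among the promoter factors, Pdx1 measured 66.5 and 96.5 CPM in wild-type DMSO libraries and 108 and 108 with DMXAA, a log2 fold change of 0.41 (SE 0.20, edgeR adjusted p = 0.439). Mafa, which activates insulin transcription with PDX1, measured 563 and 874 CPM and then 1178 and 838 (0.49, SE 0.27, edgeR adjusted p = 0.498). Neither passed the test, and the Mafa pairs overlapped. Without wild-type DMSO replicate 1 the log2 fold changes were 0.18 for Pdx1 and 0.22 for Mafa, and without replicate 2 they were 0.70 and 0.84, none of them called. Of 20 factors tested, edgeR and DESeq2 each called 0 with DMXAA in wild-type islets. In edgeR 5 of 20 had an unadjusted p under 0.05, against 11.9% of all genes. The median log2 fold change was 0.18 against 0.00 for all genes. In the same comparison the log2 fold changes of the factors Neurod1, Nkx6-1 and Pax6 were -0.19, 0.23 and 0.14, and that of the insulin mRNA binding protein gene Ptbp1 was 0.05.

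Of the cleavage genes, the convertase Pcsk1 measured 1086 and 877 CPM in wild-type DMSO libraries and 698 and 741 with DMXAA (log2 fold change -0.45, SE 0.16, edgeR adjusted p = 0.325). Slc30a8, which loads zinc into insulin granules, measured 670 and 588 CPM and then 551 and 421 (-0.37, SE 0.17, edgeR adjusted p = 0.413). Over the 8 fits that left out a library, Pcsk1 ranged from -0.59 to -0.27 and Slc30a8 from -0.58 to -0.19. Both treated pairs lay below the untreated ones, as did 23.9% of all genes tested, and neither passed the test. Pcsk2, Cpe and Pam had log2 fold changes of -0.02, -0.18 and -0.07. The folding oxidase Ero1b (Ero1lb in the annotation), the transporter Slc2a2, the beta cell peptide Ucn3 and Gcg had -0.13, -0.12, 0.40 and 0.12, none of them called.

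The single called gene of the 99 was Gipr, the receptor through which the gut hormone GIP enhances insulin release. It was called between genotypes under DMXAA, where 2.39% of all genes were called. Under DMXAA it measured 200.6 and 169 CPM in wild-type and 108 and 96.8 CPM in knockout-labelled islets (log2 difference -0.85, SE 0.17, edgeR adjusted p = 0.0153). The call was lost without wild-type DMXAA replicate 1 or knockout-labelled DMXAA replicate 2, with adjusted p of at least 0.113. DESeq2 called 2 of 99 there, Gipr and Slc25a22, and 12 had an unadjusted p under 0.05 in edgeR, against 13% of all genes.

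Receptors and degradation of both hormones formed a list of 14 genes, 12 of them tested. Calcr, the receptor that binds amylin when paired with a RAMP protein, was not among those tested, with at most 2 counts in any library. Calcrl, the related receptor for CGRP and adrenomedullin, measured 35.7 and 20.6 CPM in wild-type and 9.94 and 8.49 CPM in knockout-labelled DMSO libraries (log2 difference -1.61, SE 0.28, edgeR adjusted p = 0.0389). Under DMXAA it measured 16.4 and 20.7 CPM against 24.5 and 16.4, and the difference of the treatment effects was 1.76 (SE 0.38, edgeR adjusted p = 0.044). The call under DMSO was lost without wild-type DMSO replicate 1 or either knockout-labelled DMSO library. The call for the difference of effects was lost when any library was left out except wild-type DMSO replicate 2 and knockout-labelled DMXAA replicate 2. Ramp3, a receptor partner, was higher in knockout-labelled than wild-type islets under DMXAA, at 14.5 and 16.8 against 8.56 and 8.07 CPM (0.91, SE 0.21, edgeR adjusted p = 0.0335), a call lost in 5 of 8 fits that left out a library. Levels of Calcrl and Ramp3 in bulk islets do not show which cells carried them. The endothelial sums given above were higher in both wild-type than in both knockout-labelled libraries under DMSO and lower under DMXAA, and their part in these calls was not tested.

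Of 17 listed cytokine and stress genes, 2 rose with DMXAA in wild-type islets, against 1.48% of all genes called. Whether any of them acts on insulin mRNA was not tested. At an unadjusted p under 0.05 there were 6 of 17, against 11.9% of all genes, and DESeq2 called 3, Tnf, Atf3 and Il6. Tnf went from 0.579 and 0.394 CPM to 43.4 and 14.5 (log2 fold change 5.88, SE 0.74, edgeR adjusted p = 0.00636), a call lost without wild-type DMSO replicate 1 or either knockout-labelled DMXAA library (adjusted p of at least 0.0873). Atf3, a stress-induced transcription factor, went from 39.8 and 36.1 CPM to 76.0 and 82.0 (1.06, SE 0.14, edgeR adjusted p = 0.00102). Of the 17, Tnf alone was called for the difference of the effects (log2 -7.22, SE 1.26, edgeR adjusted p = 0.0428), against 1.2% of all genes, a call lost in 5 of 8 fits that left out a library and with no filter on low counts (adjusted p = 0.397). There 7 of 17 had an unadjusted p under 0.05, against 8.71% of all genes, and DESeq2 called Tnf alone.

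Under DMSO, 4 of the 17 were higher in knockout-labelled islets, against 0.223% of all genes called. At an unadjusted p under 0.05 there were 9, against 12.3% of all genes, and DESeq2 called 7, adding Trib3, Atf4 and Cebpb. The 4 were Hmox1, which degrades heme (191 and 227 against 580 and 638 CPM, log2 1.54, SE 0.21, edgeR adjusted p = 0.00984), Ddit3, the stress factor CHOP (87.3 and 106 against 189 and 197 CPM, log2 1.0), and the chaperones Hspa1a and Hspa1b (log2 1.25 and 1.03). The last 3 each had an edgeR adjusted p of 0.027. Each of these 4 calls was lost without wild-type DMSO replicate 1 or either knockout-labelled DMSO library, with adjusted p of 0.0554 to 0.361. They fall in the libraries in which all 3 hormone genes lay above the wild type in CPM, and their part in that difference was not tested. Under DMXAA 5 of the 17 were called, against 2.39% of all genes, with Hmox1, Hspa1a and Hspa1b higher and Tnf and Atf3 lower in knockout-labelled islets. There 8 had an unadjusted p under 0.05, against 13% of all genes, and DESeq2 called 6, adding Il6.

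The genes whose level followed each hormone most closely over the 8 libraries were found among 9468 genes of at least 10 CPM on average. For Ins1 they were 1110008P14Rik (Pearson r = 0.984), Atp5j (0.984), Gnl1 (0.982), Bsg (0.981) and AI837181 (0.968). For Ins2 they were Dctn3 (0.981), Pgrmc2 (0.979), Eif4a3 (0.978), Rpl34 (0.975) and Mcrip1 (0.972). For Iapp they were Atraid (0.984), Atp5l (0.983), Slc25a14 (0.977), Jkamp (0.967) and A430005L14Rik (0.966). These correlations are of log2 CPM over n = 8 libraries, the highest out of all those genes, and share library scaling. Between the hormones, Ins2 and Iapp correlated at 0.901, Ins1 and Ins2 at 0.788 and Ins1 and Iapp at 0.534. Ins1 thus followed Iapp less closely than Ins2 did, over libraries that share their scaling and their islets.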

How the data were processed

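Whole-number counts per gene for 8 poly(A) RNA libraries of mouse islets were deposited by the authors. The submitters' processing notes list HISAT2, HTSeq and mm10 with no version. Annotation release, strand setting and the handling of reads that match several genes: not given in the sources used here. Reads were paired, 150 bases each, per the labels' protocols. Of 54532 identifiers, 54495 matched GENCODE M21 (mm10), from which symbols, exons and coding bases were taken. Promoters are from RefSeq (GRCm38.p6), which matched Ins1 and Iapp; the Ins2 promoter is not shown.

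Libraries were grouped by their labels. Counts were scaled by TMM and filtered by filterByExpr (17055 genes), and all 8 libraries entered 1 model of group means, with 4 residual degrees of freedom (edgeR 4.0.16 and limma 3.58.1, R 4.3.3, glmQLFit with legacy=FALSE and robust, glmQLFTest). Benjamini-Hochberg adjusted p-values under 0.05, over all genes tested, were called. CPM uses the scaled library sizes. Ratios and shares were compared by two-sided exact permutation within strata (36 arrangements). The steps were tested on simulated data. Alternatives were RLE scaling, leaving the 3 genes out of scaling, no filter, the older form of the fit, a replicate block, insulin counts added, only the groups compared, DESeq2 1.42.0 and leaving out each library.

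The genes and the lists were chosen with earlier results of these data known. Genes named are Ins1, Ins2, Iapp, a set of 16 beta cell and islet genes fixed whatever their values, up to 3 called members of a list per comparison (not every gene that met this is given), the 5 most correlated genes of each hormone, and genes that overlap any of the 3. Hspa1a and Hspa1b, Chgb and Slc25a22 were named to complete small counts. Markers of other cell types are given as sums.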

Additional observations from a re-analysis of the deposited data

How the results depend on the processing

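None of Ins1, Ins2 and Iapp was called in any of 276 alternative estimates by edgeR or DESeq2. Each estimate was for 1 gene, comparison and setting, so many came from the same fit. The estimates with insulin counts added were entered under both Ins1 and Ins2. Of the 276, 21 turned a direction. With Ins1 and Ins2 counts added, the knockout-labelled treatment effect was -0.0090 in place of 0.14 for Ins1, and the wild-type effect 0.20. All other turns came from leaving out 1 library. Over those 8 fits, Ins1 ranged from -0.44 to 0.57 for treatment in knockout-labelled islets and from -0.49 to 0.55 for genotype under DMXAA. Ins2 ranged from -0.18 to 0.37 for treatment in wild-type islets, -0.51 to 0.30 in knockout-labelled islets, -0.58 to 0.24 for the difference of the effects, -0.22 to 0.19 for the average effect and -0.16 to 0.68 for genotype under DMXAA. Iapp ranged from -0.30 to 0.026 for treatment in wild-type islets, -0.49 to 0.087 in knockout-labelled islets, -0.35 to 0.24 for the difference and -0.16 to 0.43 for genotype under DMXAA. The log2 Ins1 to Ins2 ratio by genotype ranged from -0.15 to 0.067, and the summed share by treatment from -1.85 to 2.58 points. The cause was not tested.

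Counts of called genes among all genes moved more. For treatment in knockout-labelled islets edgeR called 64, and 177 with no filter, 29 in the older form, 129 with only the groups compared and DESeq2 154. For genotype under DMSO it called 38, and then 159, 17, 25 and 155 in the same order. For the difference of the effects 204 became 312 with DESeq2, for genotype under DMXAA 407 became 616, and for the average effect 127 became 198 with no filter and 216 with DESeq2. Leaving out 1 library gave 160 to 994 for treatment in wild-type islets (253 with all), 3 to 129 in knockout-labelled islets, 87 to 304 for the difference, 3 to 240 for genotype under DMSO, 205 to 674 under DMXAA and 59 to 412 for the average. Deviations of same-numbered libraries correlated between -0.10 and 0.07 over the genes tested. Whether such libraries shared a mouse, pool or day cannot be told from 1 difference per group, and the labels do not say. With a replicate block the counts were 259, 61, 217, 56, 417 and 145 in the order wild-type treatment, knockout-labelled treatment, difference, genotype under DMSO, genotype under DMXAA and average, and no call of the 3 hormones changed. Counting error on the summed hormone share was at most 0.0212 percentage points on either side, less than the SD of each group.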
